A study of Arabidopsis thaliana with 4 samples.

Results

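Cold-regulated (COR) genes and the related dehydrins are among the Arabidopsis thaliana transcripts most used as markers of cold and water stress. The rule named 9 loci, and the array annotation listed a probe set to 1 gene for 5 of these 9. The 5 are COR15A (AT2G42540), COR15B (AT2G42530), COR47 (AT1G20440), COR27 (AT5G42900) and AT4G33980, which the reference table lists by its locus alone. AT4G33980 was entered in the member list as COR28. KIN1 is listed only on a probe set that also names KIN2, and LTI78 (RD29A), ERD10 and ERD14 are not analysed here. COR15A, COR27 and COR47 were chosen with earlier results of these arrays known, the first pair of them for a peak in RNAi group 2. For those 3 genes the values are a description with no test. COR15B and AT4G33980 were included by locus. All 5 passed the filter on low signals, which kept 15922 of 22746 probe sets, and the annotation names 13286 genes in all.

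The plants of RNAi groups 2 and 3 were transformed with an inverted repeat made from the coding sequence of myosin XI-K, an actin-based motor. Each sample pooled rosette leaves, stem leaves and flowers in equal parts, and was measured on 1 array. The column labelled RNAi group 1, from plants with the same repeat, and the column labelled GUS control, from plants that express the reporter GUS from a transgene, held the same value in all 22810 rows. They were counted as 1 sample and are called the shared array. The labels give no plant age, growth temperature, time of harvest or promoter of the repeat, and the level of myosin XI-K itself was not analysed here, so the labels are not checked against the targeted gene. Whether a difference from the shared array sets silenced against control plants, or silenced groups against each other, cannot be told apart. Because the tissues were pooled, a change in the share of a cell type and a change in RNA per cell cannot be told apart either.

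As background, cold induces the CBF transcription factors, which bind a short promoter element shared by many COR genes and switch them on within hours. COR proteins protect membranes and proteins of the cell when it loses water to ice or drought, and many of them also respond to the hormone abscisic acid. COR15A and COR15B act in the chloroplast stroma, COR47 is a dehydrin of the cytosol, and COR27 is a nuclear protein that links cold to the circadian clock. Many late embryogenesis abundant (LEA) proteins, the wider family to which COR15 and the dehydrins belong, also accumulate in maturing seeds.

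All 5 genes were brightest in RNAi group 2, with 3 well above the other arrays and 2 close to them. COR27, COR15A and AT4G33980 were at least 2-fold above both other arrays, at 9.29-fold, 2.54-fold and 2.28-fold over the higher of the other arrays. COR47 and COR15B were 1.20-fold and 1.16-fold above it. The 2-fold limit thus fell between AT4G33980 and COR47. Of 2 reference genes, AT2G28390 was also highest in RNAi group 2, by 1.20-fold over the higher of the other arrays, and AT4G34270 was not. The steps of COR47 and COR15B were thus about the size of that of a reference gene. Of all kept probe sets, 3.95% were at least 2-fold above both other arrays in RNAi group 2 and 39.5% were highest there. None of the members was lowest in RNAi group 2 (35.3% of all kept probe sets) or at least 2-fold below both other arrays there (2.42%). COR15A and COR27 were picked on this readout, so neither the count of 5 of 5 highest nor that of 3 of 5 says anything by itself. Among the 3 other members, AT4G33980 was past the 2-fold limit. No array had a replicate, so none of these peaks has a replicate check.

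**Figure D1:**
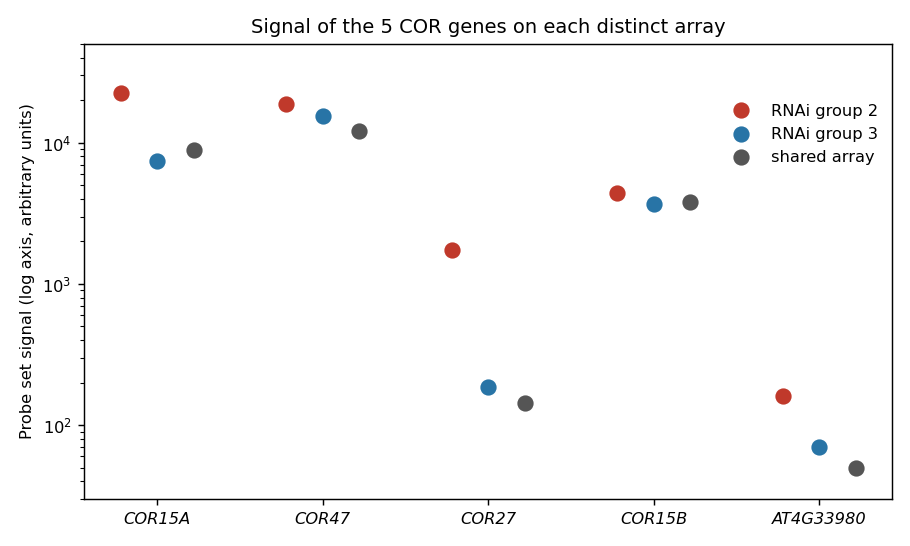
Probe set signal of the 5 COR genes (horizontal axis) on a log axis in arbitrary units, with 1 point for RNAi group 2, RNAi group 3 and the shared array (GUS control and RNAi group 1, identical columns). There are no error bars because each point is 1 array. RNAi group 2 is the highest point for every gene, by 9.29-fold for COR27 and by 1.16-fold for COR15B.

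COR27, the regulator that links cold to the clock, had a signal of 1724 in RNAi group 2 and 185.5 in RNAi group 3, against 144.4 on the shared array. RNAi group 2 stood alone, and the other arrays lay close together. On the log2 scale COR27 was 3.58 above the shared array in RNAi group 2 and 0.36 above it in RNAi group 3. Its peak height, the log2 difference of RNAi group 2 to the higher of the other arrays, was 3.22, above that of 99.8% of the kept probe sets. The mean log2 difference of RNAi groups 2 and 3 to the shared array was 1.97 (SE 1.08).

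AT4G33980 had a signal of 160.6 in RNAi group 2 and 70.5 in RNAi group 3, against 49.6 on the shared array. Its order of arrays was that of COR27, with smaller steps. Both RNAi groups lay above the shared array for 30.2% of all kept probe sets, a share that includes those highest in RNAi group 3. How alike AT4G33980 and COR27 are in sequence was not analysed here, and whether their probe sets share signal was not tested. The log2 difference of AT4G33980 to the shared array was 1.70 in RNAi group 2 and 0.51 in RNAi group 3. RNAi group 2 was 2.28-fold above RNAi group 3, close to the 2-fold limit. Tested over all kept probe sets with limma, no difference of the RNAi arrays from the shared array beyond the spread that limma fits was detected (log2 difference 1.1, SE 0.71; unadjusted p = 0.156, adjusted p = 0.9999), with 2 of 2 RNAi arrays higher. In that test 0.0314% of the probe sets were called higher and 0.0% lower.

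Of the chloroplast protectants, COR15A had a signal of 22368 in RNAi group 2 and 7359 in RNAi group 3, against 8821 on the shared array. RNAi group 2 was 3.04-fold above RNAi group 3 and 2.54-fold above the shared array, and RNAi group 3 was the lowest of the arrays. The log2 difference to the shared array was 1.34 in RNAi group 2 and -0.26 in RNAi group 3, and this order, with RNAi group 2 above and RNAi group 3 below the shared array, was that of 23.3% of the kept probe sets. Their mean difference was 0.54 (SE 0.68).

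COR15B, the gene next to COR15A on chromosome 2 and its close copy, had a signal of 4374 in RNAi group 2 and 3653 in RNAi group 3, against 3787 on the shared array. The arrays ran in the same order as for COR15A, and the whole range was 1.20-fold. The log2 difference to the shared array was 0.21 in RNAi group 2 and -0.05 in RNAi group 3. The limma difference of 0.08 (SE 0.50) had an unadjusted p = 0.880 and an adjusted p = 0.9999, with 1 of 2 RNAi arrays higher. The pair thus differed by 1.13 on the log2 scale in how far RNAi group 2 stood above the shared array, a difference with no replicate check. Each probe set is listed to 1 of the genes, but copies this alike may share signal, and how much was not tested.

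The dehydrin COR47 had a signal of 18726 in RNAi group 2 and 15542 in RNAi group 3, against 12048 on the shared array. Both RNAi groups lay above the shared array, and they lay closer to each other (1.20-fold apart) than to it. The log2 difference to the shared array was 0.64 in RNAi group 2 and 0.37 in RNAi group 3, with a mean of 0.50 (SE 0.49). Both RNAi arrays were above the shared array for 30.2% of all kept probe sets as well. The peak heights of COR47 and COR15B were 0.27 and 0.21. The SE values given belong to the mean difference from the shared array, so they do not measure the spread of a peak height. They rest mostly on the spread fitted over all kept probe sets, so they do not measure that of a gene's own RNAi arrays either.

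The members had the same highest array but not the same size of step. COR15A and COR27 were chosen for that peak, and COR47 and COR15B lay close to the other arrays. Of all kept probe sets, 39.5% were highest in RNAi group 2. The median log2 difference of the members to the shared array was 1.34 in RNAi group 2 and 0.36 in RNAi group 3. Over all kept probe sets it was 0.04 in each. These medians are the values of COR15A and COR27, the genes chosen for their peak. Among the 3 other members the median was that of COR47, 0.64 in RNAi group 2 and 0.37 in RNAi group 3. At least 2-fold differences from the shared array were seen for 3 of 5 members in RNAi group 2, where 6.29% of the kept probe sets were that much higher. None was that much lower, against 3.76% of all. In RNAi group 3 they were seen for 0 of 5, where 3.81% were that much higher and 3.95% that much lower. RNAi group 2 was at least 2-fold above RNAi group 3 for 3 of 5 members, against 9.54% of the kept probe sets, and that much below it for 0 of 5, against 7.31%. These comparisons share arrays, and the counts include the genes chosen for their peak. In the plane of these differences, the members nearest to each other were COR47 and COR15B, 0.60 log2 units apart, and the farthest were COR27 and COR15B, 3.39 apart.

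**Figure D2:**
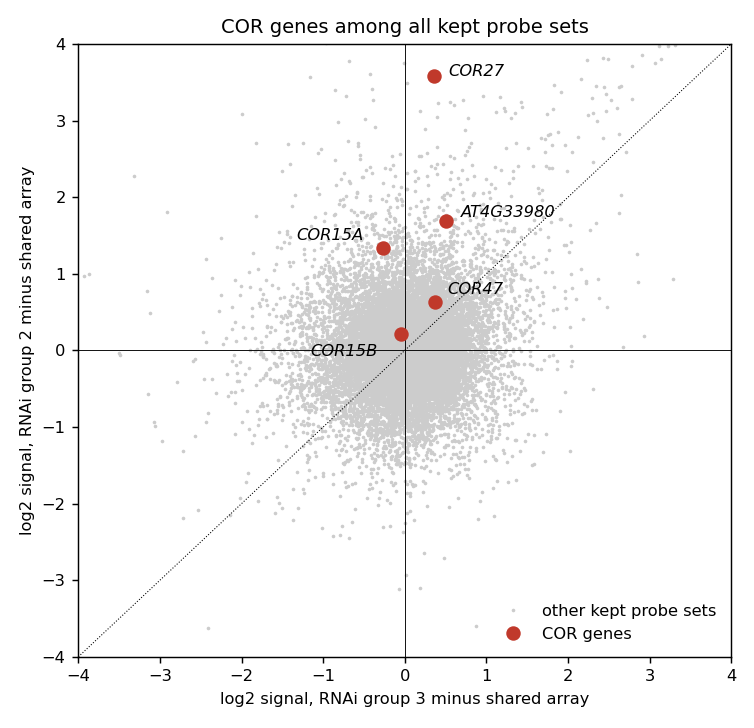
Log2 signal difference of RNAi group 2 to the shared array (vertical axis) against that of RNAi group 3 to the shared array (horizontal axis) for all kept probe sets (grey) and the 5 COR genes (red). The dotted line marks equal differences, and 45 probe sets lie outside the axes. The 5 COR genes lie above the dotted line, COR27 at the sparse edge of the grey points and COR15B and COR47 inside it. Both axes use the shared array.

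More genes lay close to COR15A than to COR27, and both genes were chosen for their peak in RNAi group 2. COR27, with a peak height above that of 99.8% of the kept probe sets, lies where genes are sparse. Counts of near genes depend on how far out a gene lies, so they say nothing by themselves. Likeness was the distance between genes in the same plane of 2 log2 differences, which rest on 3 arrays, among 8535 other named genes past the filter. For COR15A, 43 genes lay within 0.25 log2 units. AT5G61520, AT3G15260, AT1G74840, SWEET13 and AT1G73700 came first, and the nearest lay 0.058 and the last of them 0.099 away. SWEET13, a sucrose transporter of the plasma membrane, had a signal of 518.4 in RNAi group 2 and 173.3 in RNAi group 3, against 213.7 on the shared array. For COR27, 0 genes lay within 0.25. AT4G15430, AT5G39520, AT1G14950, AT1G02470 and AT2G17740 came first, with the nearest 0.356 and the last of them 0.645 away. AT4G15430 and AT1G14950 were under 32 on both other arrays and AT2G17740 on the shared array, so their distances and their order rest on dim signals. On both other arrays these genes were under the filter limit (5.307 on the log2 scale), and they passed it only through RNAi group 2. AT5G39520 had a signal of 762.4 in RNAi group 2 and 117.5 in RNAi group 3, against 80.3 on the shared array.

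The regulators of the pathway could be followed for few genes. Of a list of 20 CBF pathway regulators, 2 had a named probe set. SIZ1, a SUMO ligase that acts on the CBF activator ICE1, had a signal of 1210 in RNAi group 2 and 795.9 in RNAi group 3, against 952.0 on the shared array. STZ, a zinc finger repressor induced by cold and drought, had 5863 in RNAi group 2 and 4095 in RNAi group 3, against 5432 on the shared array. RNAi group 2 stood 1.27-fold above the higher of the other arrays for SIZ1 and 1.08-fold for STZ, and with median centring STZ was no longer highest there (-0.01 on the log2 scale). By limma 0 of 2 were called in either direction (adjusted p = 0.9999 for each), where 0.0314% of all kept probe sets were called higher and 0.0% lower. The CBF genes themselves are not analysed here.

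Of the 3 other effectors with a named probe set, LTI30 stood well above the other arrays in RNAi group 2, and the others lay close to them. Of a list of 23, these 3 were named, with 0 called in either direction, against 0.0314% of all kept probe sets called higher and 0.0% lower. The dehydrin LTI30 had a signal of 7905 in RNAi group 2 and 2991 in RNAi group 3, against 4214 on the shared array. It had the array order of COR15A, as did 23.3% of the kept probe sets. RNAi group 2 was 1.88-fold above the shared array for LTI30, short of the 2-fold limit. The dehydrin HIRD11 (AT1G54410) had 11034 in RNAi group 2 and 9475 in RNAi group 3, against 9673 on the shared array, a range of 1.16-fold. TIL, a lipocalin induced by temperature stress, was lowest in RNAi group 2, at 18697, with 20691 in RNAi group 3 and 18938 on the shared array.

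From the drought and abscisic acid list, 1 of 29 genes was named. LEA4-5, a LEA protein of water stress and seeds, had a signal of 528.5 in RNAi group 2 and 188.4 in RNAi group 3, against 188.6 on the shared array. RNAi group 2 stood 2.80-fold above the others, which were nearly equal. From the clock list, 1 of 21 was named. GI, an evening gene of the clock, had 1387 in RNAi group 2 and 824.5 in RNAi group 3, against 665.3 on the shared array. Its array order was that of COR27, with a peak of 1.68-fold. Both RNAi groups lay above the shared array for 30.2% of the kept probe sets, including those highest in RNAi group 3. Neither gene was called by limma (log2 difference 0.74, SE 0.67, for LEA4-5 and 0.68, SE 0.55, for GI; adjusted p = 0.9999 for both). Time of harvest is not given in the labels, and its part in the values of the clock-linked genes was not tested.

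Of 16 further stress and clock loci, listed after the annotation had been read, 11 were named, and 0 of the 10 that passed the filter were called in either direction. Over all kept probe sets, 0.0314% were called higher and 0.0% lower, so that count is near the share of all. AT4G12490 and AT1G16850 were at least 2-fold above both other arrays in RNAi group 2, as were 3.95% of all kept probe sets. AT4G12490 had a signal of 1085 in RNAi group 2 and 77.9 in RNAi group 3, against 137.3 on the shared array. AT1G16850 had 1770 in RNAi group 2 and 268.1 in RNAi group 3, against 470.8 on the shared array. Like COR15A, both were lowest in RNAi group 3, an array order that 23.3% of the kept probe sets had. The other 9 had no such peak. AT3G55580 was also brightest in RNAi group 2, 1.82-fold above RNAi group 3, with 157.8 in RNAi group 2 and 86.8 in RNAi group 3, against 26.3 on the shared array. SRC2, whose array order changed with the scaling, had 13291 in RNAi group 2 and 14335 in RNAi group 3, against 13494 on the shared array. FRO1, the FROSTBITE1 subunit of mitochondrial complex I, needed for cold acclimation, had 2137 in RNAi group 2 and 4087 in RNAi group 3, against 3619 on the shared array. XCT, a regulator of clock period, was lowest in RNAi group 2, with 229.1 there and 670.4 in RNAi group 3, against 328.7 on the shared array. In RNAi group 3 XCT was at least 2-fold above both other arrays. With signals under 32 set to 32, so were 1.24% of all probe sets.

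**Figure D3:**
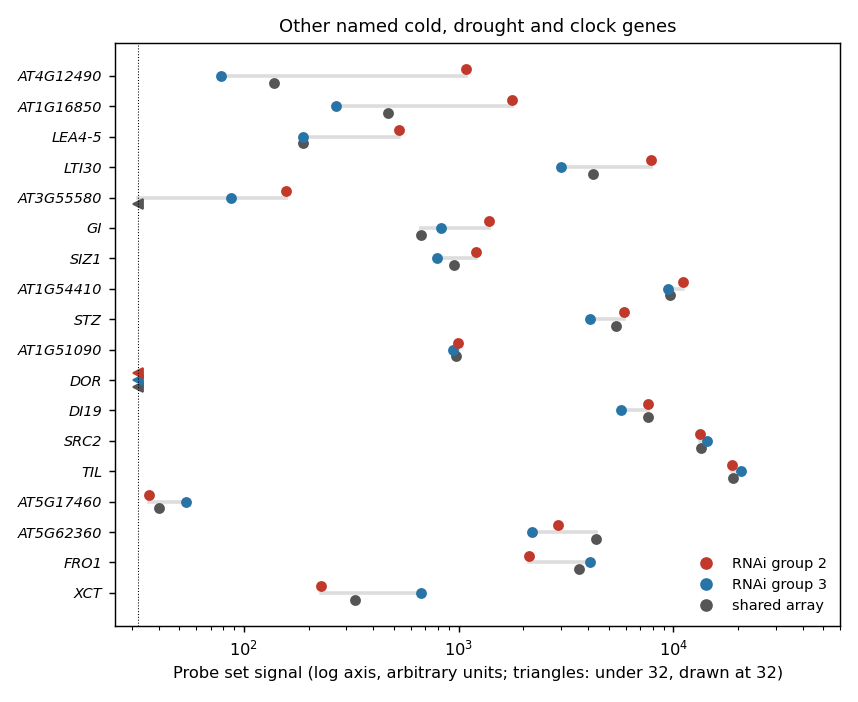
Probe set signal (log axis, arbitrary units) of 18 other named cold, drought and clock genes on the 3 distinct arrays, ordered from the top by how far RNAi group 2 lies above the higher of the other arrays. Triangles mark signals under 32, drawn at 32, and each point is 1 array. AT4G12490, AT1G16850 and LEA4-5 stand at least 2-fold above both other arrays in RNAi group 2, and XCT and FRO1 stand farthest below the higher of the other arrays there.

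In the wider LEA family some genes shared the peak and others did not. A list of 46 LEA and dehydrin loci beside the members, drawn up after the annotation had been read, had 32 named genes. On the shared array 16 of these 32 had a signal under 32, so the whole named list was described with signals under 32 set to 32. On that scale 10 of 32 were at least 2-fold above both other arrays in RNAi group 2, 0 of 32 in RNAi group 3 and 0 of 32 on the shared array. Of all probe sets, 3.35% were that high in RNAi group 2, 1.24% in RNAi group 3 and 0.281% on the shared array, so the counts of 0 are near those of all probe sets. By limma 0 of the 16 that passed the filter were called in either direction. That is near the share of all kept probe sets, 0.0314% higher and 0.0% lower.

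M10 had a signal of 255.7 in RNAi group 2 and 3.0 in RNAi group 3, against 2.6 on the shared array. AT3G15670 had 657.9 in RNAi group 2 and 4.1 in RNAi group 3, against 4.5 on the shared array. AT3G17520 had 354.9 in RNAi group 2 and 18.5 in RNAi group 3, against 33.5 on the shared array. These 3 were under or near 32 on both other arrays and well above it in RNAi group 2. AtLEA4-1 had 237.6 in RNAi group 2 and 52.5 in RNAi group 3, against 69.3 on the shared array. AT3G02480, which was above 32 on all arrays, had 2815 in RNAi group 2 and 572.6 in RNAi group 3, against 473.0 on the shared array. The other 5 of the 10 were LEA4-5, described above, and AT4G21020, AT2G42560, LEA18 and AT2G33690. With signals under 32 set to 32, RNAi group 2 stood 3.32-fold above the higher of the other arrays for AT4G21020, 3.15-fold for AT2G42560, 2.75-fold for LEA18 and 2.39-fold for AT2G33690. On both of the other arrays AT4G21020, AT2G42560 and AT2G33690 were under 32, so these folds depend on that floor.

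Other LEA genes did not follow. AT2G23120 had a signal of 13774 in RNAi group 2 and 13133 in RNAi group 3, against 13481 on the shared array, and its array order changed with the scaling. AT2G44060, listed as LEA26, had 3381 in RNAi group 2 and 4763 in RNAi group 3, against 4564 on the shared array. AT4G38410 was the only one of the 32 at least 2-fold below both other arrays in RNAi group 2, at 51.1, with 154.8 in RNAi group 3 and 241.9 on the shared array. The median log2 difference of the 32 genes to the shared array on this scale was 0.56 in RNAi group 2 and 0.00 in RNAi group 3, against 0.00 in both over all probe sets.

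**Figure D4:**
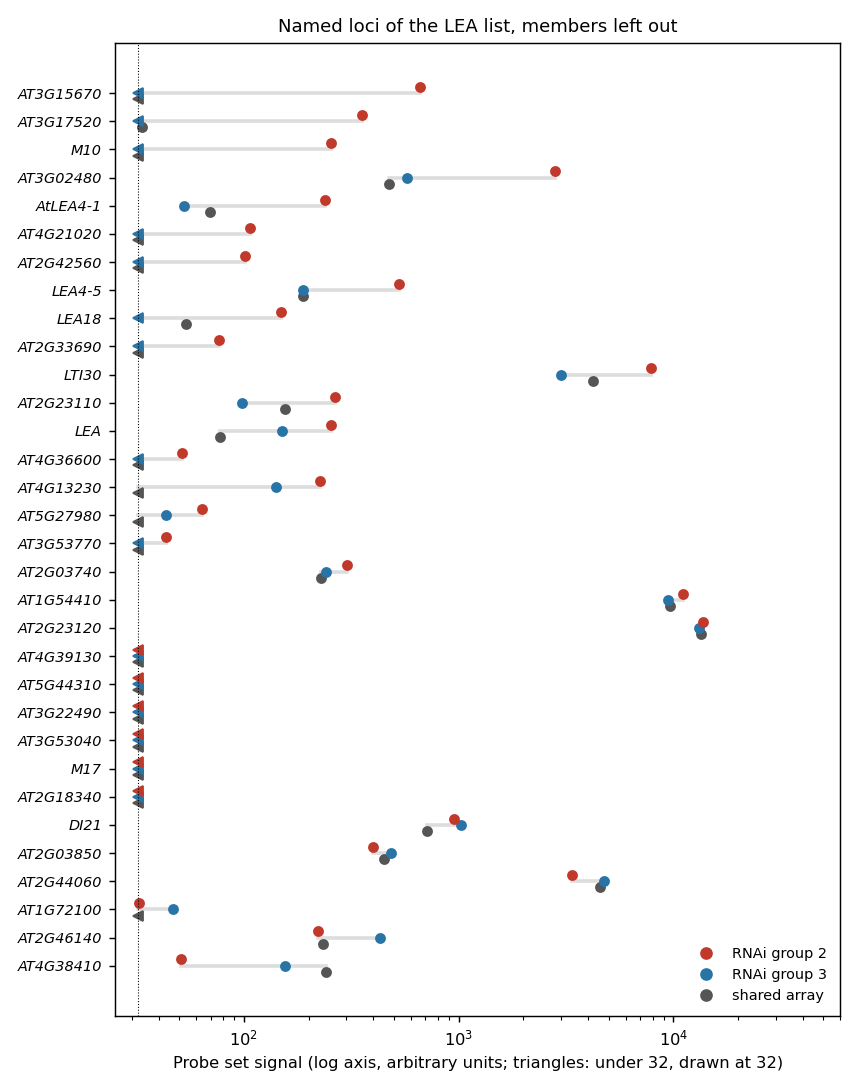
Probe set signal (log axis, arbitrary units) of the 32 named LEA and dehydrin loci on the 3 distinct arrays, ordered from the top by how far RNAi group 2 lies above the higher of the other arrays. Triangles mark signals under 32, drawn at 32 (dotted line), and each point is 1 array. The top 10 stand at least 2-fold above both other arrays in RNAi group 2, and AT4G38410 at the bottom lies at least 2-fold below.

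The summed signals of the seed and pollen markers were also highest in RNAi group 2. In the RNAi groups most of the pollen sum came from genes listed because earlier results of these arrays showed them high. The pollen sum therefore says nothing by itself. Of 14 seed and embryo markers 1 was named, AT3G15670, which is also in the LEA list. A further list of 26 seed maturation loci, added after the LEA values had been seen, had 12 named genes. With signals under 32 set to 32, 7 of these 12 were at least 2-fold above both other arrays in RNAi group 2, where 3.35% of all probe sets were. None of the 12 was so in RNAi group 3 or on the shared array, near the 1.24% and 0.281% of all probe sets. In RNAi group 3, 8 of the 12 had a signal under 32, and on the shared array 8 did, so many of these folds depend on that floor. The summed signal of the 12 was 4105 in RNAi group 2 and 2142 in RNAi group 3, against 846.3 on the shared array. PAP85, a seed storage protein, had 463.9 in RNAi group 2 and 23.2 in RNAi group 3, against 17.7 on the shared array, and BETA-VPE, a seed protease that processes storage proteins, had 959.3 in RNAi group 2 and 224.3 in RNAi group 3, against 416.1 on the shared array. AT5G07330 alone gave 1645 of the sum in RNAi group 3, and was higher there than in RNAi group 2, with 921.0 in RNAi group 2 and 1645 in RNAi group 3, against 265.8 on the shared array. The oleosin OLEO3 was also highest in RNAi group 3, with 59.9 in RNAi group 2 and 97.1 in RNAi group 3, against 49.6 on the shared array.

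Of 17 pollen markers 6 were named, with a summed signal of 2830 in RNAi group 2 and 1222 in RNAi group 3, against 80.3 on the shared array. In the RNAi groups most of that sum came from AT5G45880, AT3G07820, AT5G07430 and AT3G01270, which were higher in both RNAi groups than on the shared array. ACT12 had 46.3 in RNAi group 2 and 11.8 in RNAi group 3, against 31.0 on the shared array. Those first 4 genes had entered the list because earlier results of these arrays showed them high. All 6 were under 32 on the shared array, and ANX1 was under 32 on every array. The 2 named leaf photosynthesis markers, LHCB4.1 and RCA, had a summed signal of 35417 in RNAi group 2 and 42549 in RNAi group 3, against 41771 on the shared array. The 1 named flower marker, SPT, had 80.7 in RNAi group 2 and 121.3 in RNAi group 3, against 134.5 on the shared array. The pooled leaf and flower tissue was thus seen through few markers, and the leaf markers were bright on every array. The part of seed, pollen or leaf content in the COR and LEA values was not tested.

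The median signal was 170.25 in RNAi group 2 and 159.7 in RNAi group 3, against 156.1 on the shared array, so the median of RNAi group 2 was itself somewhat higher. The reference genes AT4G34270 and AT2G28390 had signals of 501.9 and 566.0 in RNAi group 2, 502.0 and 472.9 in RNAi group 3, and 382.3 and 451.6 on the shared array. Signals under 32 made up 24.9% of RNAi group 2 and 26.1% of RNAi group 3, against 27.6% of the shared array. Set to a common median, RNAi group 2 was still the highest array for all 5 members, and COR27, COR15A and AT4G33980 had peak heights of 3.12, 1.22 and 1.1 on the log2 scale.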

How the data were processed

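Total RNA was hybridised to 1-colour Affymetrix arrays, 1 per plant group. The probe set intensity values were used on the linear scale as the authors deposited them; GCOS and MAS5 are named per the submitters' processing notes, with versions not given in the sources used here. Trimmed means of 500.05 to 500.06 per array show that arrays had been scaled before deposit. The number of arrays limits the precision.

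Control probe sets (64) were left out. Of the platform annotation's probe sets, 13513 list 1 gene, 13436 of which matched the TAIR10.1 reference table, and 503 list several and were not named. Signals were put on the log2 scale, and probe sets with a mean above the 30th percentile (5.307) were kept. RNAi groups 2 and 3 (n = 2) were fitted against the shared array (n = 1) with limma 3.58.1 in R 4.3.3 (lmFit, eBayes with intensity trend, 2-sided, Benjamini-Hochberg over all kept probe sets, threshold 0.05). With 1 residual and 7.45 prior degrees of freedom, each SE rests mostly on the spread fitted over all kept probe sets. Less of it comes from the RNAi arrays of the gene itself. That spread is taken between 2 arrays, which may share technical sources, and the shared array is assumed to vary like them. Peaks in RNAi group 2 have no test.

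Members and lists were chosen with earlier results of these data known. Named genes are all members, list genes with a 2-fold peak or else the 2 farthest from the mean of the other arrays, and the 5 nearest patterns to COR15A and to COR27. The further stress and LEA lists, added after the annotation was read, name their 2-fold peaks and further examples chosen after their values were seen. The seed maturation list names only some of its 2-fold peaks. Its named genes and the marker genes named were also chosen after their values were seen. Where several probe sets list the same gene, the one brightest on average stands for it. Alternatives were other scalings, floors, offsets, filters, eBayes settings, fold limits and left-out arrays. Promoter motifs were planned and not run, because no sequence table was used here.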

Additional observations from a re-analysis of the deposited data

How the results depend on the processing

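RNAi group 2 was the highest array for the 5 members in every scaling, floor, offset and filter run that kept them. Peak heights on the log2 scale were 3.11 to 3.22 for COR27, 1.22 to 1.43 for COR15A, 1.03 to 1.19 for AT4G33980, 0.18 to 0.35 for COR47 and 0.09 to 0.31 for COR15B. The count of 3 members at least 2-fold above both other arrays was 2 with the 50th percentile filter, which removes AT4G33980, and 1 with a 3-fold limit, when COR27 remained. The matching share of all probe sets, 3.95%, was 10.6% at 1.5-fold, 1.23% at 3-fold, 7.87% without a filter, 6.29% over the shared array alone and 9.54% over RNAi group 3 alone. Leaving out RNAi groups 2 and 3 in turn gave -0.26 to 1.34 for COR15A, -0.05 to 0.21 for COR15B, 0.37 to 0.64 for COR47, 0.36 to 3.58 for COR27 and 0.51 to 1.70 for AT4G33980 as the mean difference from the shared array, the negative values being those without RNAi group 2, with no residual degrees of freedom and so no test. Adjusted p of COR15B and AT4G33980 stayed at 0.9999 to 1 in limma under every setting that kept them. The 5 probe sets called higher, with 147 at an unadjusted p under 0.05, became 0 with quantile normalisation, the floor of 32, the offset of 16, no filter, robust eBayes and all 4 columns as labelled, and 13 without the trend; the cause was not tested. No probe set was called lower (48 at an unadjusted p under 0.05). The floor with quantile normalisation was added after the data were seen. Each member had 1 probe set, so no other probe set could be tried. No paired analysis was possible because the GUS control carries no group number.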
